A study of Mus musculus with 12 samples.

Results

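White fat differs by where it lies in the body, and 10 genes that are used to tell a visceral from a subcutaneous depot were followed here through 12 RNA-seq libraries of mouse fat and liver. The genes were taken as the rows of the deposited count table that carry their symbols, and all 10 of 10 were found among 54532 genes. The visceral set holds 7 of them (Wt1, Msln, Upk3b, Lrrn4, Upk1b, Bnc1 and Tcf21) and the subcutaneous set holds 3 (Tbx15, Shox2 and Hoxc10). In the fat libraries, which the labels call inguinal, 6 of the 7 visceral genes were plainly detected and above liver, Tcf21 stood at about its liver level in CPM, and the 3 subcutaneous genes were at or near 0.

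The study compared male mice aged 52 weeks that were wild type (WT) with mice of a global deletion of the microRNA cluster miR-322-503-351 (KO, as labelled), and both had gone 12 hours without food. Liver and white adipose tissue (WAT) were sequenced with 3 libraries for each tissue and genotype, and the labels name the fat depot in the protocol as inguinal, which is a subcutaneous depot. The labels give neither the strain nor whether the libraries of a group come from separate animals, so every p-value measures the spread between these libraries. They also name no batch.

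Visceral depots of the abdomen are wrapped in mesothelium, a sheet of flat epithelial cells that lines the body cavities and covers the organs, and inguinal fat lies outside those cavities. Mesothelial cells make mesothelin, uroplakins and the transcription factor Wt1, so these RNAs are common markers of a visceral sample. Subcutaneous fat in mice is known instead for developmental regulators of the limb and body wall, among them Tbx15, Shox2 and the posterior Hox genes.

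Total counts lay between 14531438 and 15971178 per library, so that 3 counts in a library are worth 0.188 to 0.206 CPM (counts scaled to library totals). A gene at 0 may therefore lie up to that level, a limit that covers counting error only. The genotype labels were checked at the targeted genes. Mir322 and Mir503 had 0 counts in all 6 KO libraries, against 12, 10 and 15 counts for Mir322 and 17, 21 and 10 for Mir503 in WT fat. In WT liver the counts were only 2, 1 and 0 for Mir322 and 4, 4 and 8 for Mir503, so that in liver the check is weak. Mir351, which the label also names as deleted, went against it, with 38, 60 and 48 counts in the libraries labelled KO fat and 13, 11 and 9 in WT fat. The name KO therefore stands throughout for the labelled genotype.

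The labelled tissue was checked against marker lists. The 9 adipocyte markers summed to between 18897 and 26167 CPM in the fat libraries and to between 41.7 and 97.5 CPM in liver. The 8 hepatocyte markers summed to between 96584 and 118373 CPM in liver and to between 98.4 and 2548 CPM in fat, and were highest in fat in replicate 1 of each genotype. The libraries labelled fat and liver thus carried the main markers of those tissues. The depot label is the one that the marker genes went against, as the levels below show. Which depot the tissue came from was not tested, and the samples are called fat from here on.

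The promoters of members are shown because the set divides sharply in level and because Upk3b and Lrrn4 varied alike over the fat libraries (below). RefSeq promoters on GRCm38.p6 were matched for 5 of the 10 members, and those of Upk3b, Lrrn4, Bnc1 and Shox2 follow. Each has 300 bases, 250 before and 50 after the start, and is written 5′ to 3′ along the gene with every CG in capitals. They lie at chr5:136038246-136038545 on the plus strand (Upk3b), and on the minus strand at chr2:132880813-132881112 (Lrrn4), chr7:81992250-81992549 (Bnc1) and chr3:66981722-66982021 (Shox2).
Upk3b: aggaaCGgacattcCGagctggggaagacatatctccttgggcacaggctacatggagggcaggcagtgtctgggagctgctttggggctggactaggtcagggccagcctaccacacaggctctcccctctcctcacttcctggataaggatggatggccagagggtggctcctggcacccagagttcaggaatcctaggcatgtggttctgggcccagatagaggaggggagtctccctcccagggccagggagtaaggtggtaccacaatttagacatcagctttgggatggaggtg
Lrrn4: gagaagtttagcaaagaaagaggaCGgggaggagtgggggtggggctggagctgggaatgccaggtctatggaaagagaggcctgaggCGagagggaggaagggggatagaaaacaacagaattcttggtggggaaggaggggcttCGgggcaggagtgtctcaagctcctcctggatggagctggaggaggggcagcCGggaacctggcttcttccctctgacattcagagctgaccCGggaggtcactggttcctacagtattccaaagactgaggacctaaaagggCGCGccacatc
Bnc1: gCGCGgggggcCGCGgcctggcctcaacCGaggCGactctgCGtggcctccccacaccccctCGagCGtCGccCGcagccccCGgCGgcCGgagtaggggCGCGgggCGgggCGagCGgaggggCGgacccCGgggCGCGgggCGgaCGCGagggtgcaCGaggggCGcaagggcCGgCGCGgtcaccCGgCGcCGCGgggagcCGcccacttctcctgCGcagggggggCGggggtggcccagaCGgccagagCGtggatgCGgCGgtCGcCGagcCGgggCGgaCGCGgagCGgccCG
Shox2: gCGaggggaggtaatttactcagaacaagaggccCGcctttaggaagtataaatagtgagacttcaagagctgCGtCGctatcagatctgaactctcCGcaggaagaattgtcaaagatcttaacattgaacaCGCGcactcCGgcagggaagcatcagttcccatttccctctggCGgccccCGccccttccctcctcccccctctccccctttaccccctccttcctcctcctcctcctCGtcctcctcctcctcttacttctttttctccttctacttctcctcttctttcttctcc

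The promoter of Upk3b, the most abundant member, holds 2 CG and that of Lrrn4 holds 7, where the median over 32851 promoters is 7. Bnc1, one of the lower of the detected members, holds 50, and 99.1% of those promoters hold fewer. Shox2 holds 11 and Tcf21 holds 8. The letters GGGCGG, a GC box, were searched on both strands and occur in 35.7% of all promoters and in 2 of the 5 matched members, with 6 in Bnc1 and 1 in Shox2. TATAAA occurs in 13.6% of all promoters and in Shox2 among the members, and CAGCTG in 16.3% of all and in 0 of the 5. GGGCGG and the capital CG overlap by construction, and these matches describe letters and not binding.

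Upk3b encodes uroplakin 3B, a membrane protein of urothelium and mesothelium (ENSMUSG00000042985, GRCm38 chr5:136038496-136046487). It stood at 158, 155 and 222 CPM in the 3 WT fat libraries and at 178, 254 and 197 CPM in KO fat. In liver it stood at 1.35, 3.03 and 4.26 CPM in WT and at 1.65, 6.68 and 3.04 CPM in KO. Every fat library lay above every liver library, and the fat libraries of the 2 genotypes overlapped. Upk1b (ENSMUSG00000049436, chr16:38773184-38800328), a tetraspanin that partners with Upk3-type uroplakins in bladder, stood at 38.3, 40.6 and 52.9 CPM in WT fat and at 43.3, 49.9 and 35.4 CPM in KO fat. Its liver libraries lay between 0.726 and 1.01 CPM.

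The 4 other uroplakin genes were at or near 0. Upk2 and Upk3a had 0 counts in all 12 libraries, Upk1a averaged 0.282 ± 0.186 CPM in fat (SD, n = 6), and Upk3bl averaged 0.122 ± 0.148 CPM. The genes that were high are thus those of the family known from mesothelium, while Upk2 and Upk3a, known from bladder epithelium, were not detected at this depth.

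Msln encodes mesothelin, a protein anchored to the surface of mesothelial cells (ENSMUSG00000063011, chr17:25748614-25754327). It stood at 70.8, 89.1 and 85.8 CPM in WT fat and at 78.4, 108 and 101 CPM in KO fat. Its 6 liver libraries lay between 1.45 and 2.59 CPM. No liver library came near the lowest fat library, and the genotypes overlapped in both tissues. Lrrn4 (ENSMUSG00000043110, chr2:132868305-132880891), a leucine-rich repeat membrane protein known as a mesothelial marker, stood at 56.8, 65.0 and 76.6 CPM in WT fat and at 73.3, 98.0 and 77.2 CPM in KO fat. In liver it had 3 to 25 counts per library.

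Wt1 encodes a zinc finger transcription factor of mesothelium, kidney and gonad that also marks progenitors of visceral fat (ENSMUSG00000016458, chr2:105126529-105173616). It stood at 28.6, 20.2 and 26.1 CPM in WT fat and at 39.9, 30.2 and 28.4 CPM in KO fat, with 0.742 to 2.04 CPM in liver. Replicate 1 of KO fat was the highest, and the lowest KO library lay just under the highest WT library. Bnc1 encodes basonuclin 1, a zinc finger protein of mesothelium, stratified epithelia and germ cells (ENSMUSG00000025105, chr7:81966672-81992292). It stood at 19.4, 13.8 and 17.4 CPM in WT fat and at 19.4, 19.6 and 17.0 CPM in KO fat, and its liver libraries held 0 to 12 counts. In GENCODE M21, 2.11% of its exonic bases are shared with an antisense pseudogene.

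Tcf21 was the visceral member that did not stand apart from liver. It encodes a basic helix-loop-helix factor of visceral mesenchyme and of fat progenitors, and is also known from hepatic stellate cells (ENSMUSG00000045680, chr10:22817281-22820174). It stood at 7.66, 3.82 and 3.44 CPM in WT fat, 4.49, 4.79 and 4.98 CPM in KO fat, 3.39, 7.09 and 4.80 CPM in WT liver, and 4.36, 6.13 and 3.17 CPM in KO liver. The 4 groups overlapped throughout, and the highest fat library was replicate 1 of WT. Liver also carried the stellate list, of which Lrat, Reln, Hand2, Ngfr and Colec11 were below liver in fat by the test described below, while Des and Rgs5 were above it. The share of Tcf21 that stellate cells contribute to the liver values was not tested.

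**Figure D1:**
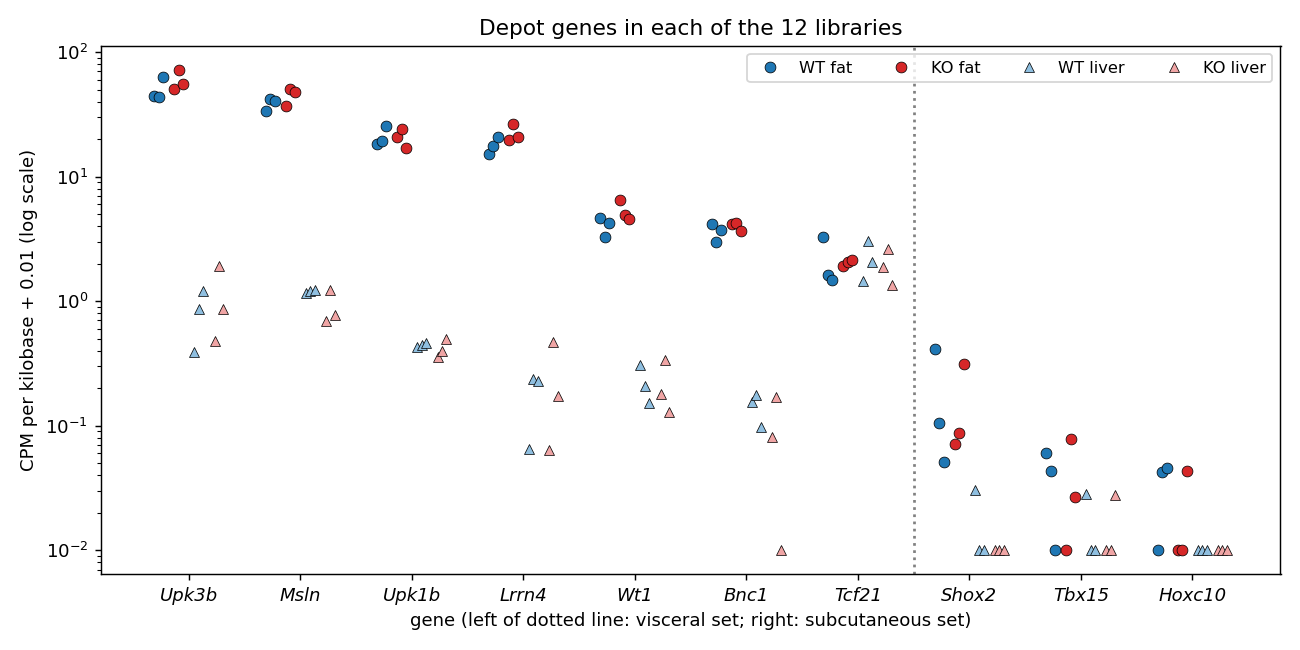
Level of each of the 10 depot genes as CPM per kilobase of gene length, plus 0.01, on a log axis; circles are the 6 fat libraries and triangles the 6 liver libraries, coloured by genotype, with genes ordered by mean level in fat. The first 6 genes have fat above liver in all libraries, Tcf21 overlaps between tissues, and the 3 subcutaneous genes lie below every visceral gene in fat.

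The subcutaneous members were counted in single reads. Tbx15, a T-box factor of limb and trunk mesenchyme (ENSMUSG00000027868, chr3:99240381-99354259), had 3, 2 and 0 counts in WT fat and 0, 4 and 1 in KO fat. Hoxc10, a posterior homeobox gene (ENSMUSG00000022484, chr15:102966796-102971893), had 0, 1 and 1 counts in WT fat and 0, 0 and 1 in KO fat, and 0 in all 6 liver libraries. At a floor of 3 counts these libraries do not tell Hoxc10 from 0. Shox2, a short stature homeobox gene of the limb (ENSMUSG00000027833, chr3:66971727-66981771), had 21, 5 and 2 counts in WT fat and 3, 4 and 16 in KO fat. Its highest fat libraries were replicate 1 of WT, at 1.33 CPM, and replicate 3 of KO, at 1.01 CPM, and the genotypes overlapped.

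Summed over each set, the contrast is wide. The 7 visceral genes summed to between 379 and 564 CPM in the fat libraries, lowest in replicate 1 of WT and highest in replicate 2 of KO. The 3 subcutaneous genes summed to between 0.204 and 1.52 CPM in the same libraries. The subcutaneous genes therefore made up 0.0426% to 0.399% of the reads of both sets. In liver the visceral genes summed to between 9.77 and 20.7 CPM and the subcutaneous genes to at most 0.135 CPM. In bulk tissue, more cells of a type and more RNA per cell cannot be told apart.

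For an order among members, levels were divided by gene length. Upk3b led in fat with a mean of 54.9 CPM per kilobase (44.0 to 71.9 over the 6 fat libraries), followed by Msln at 42.0 ± 6.52 (SD), and their ranges overlapped. Msln has a length of 2114 bases in the deposited table and 3064 exonic bases in GENCODE M21, by which it would stand at 29.0 ± 4.50 CPM per kilobase. Upk1b at 20.8 ± 3.26 and Lrrn4 at 20.0 ± 3.75 CPM per kilobase came next and overlapped each other, and they overlapped Msln by its GENCODE length but not by the deposited one. Below another gap lay Wt1 at 4.66 ± 1.04, Bnc1 at 3.82 ± 0.484 and Tcf21 at 2.07 ± 0.635 CPM per kilobase, each overlapping its neighbour. Shox2 at 0.164, Tbx15 at 0.0282 and Hoxc10 at 0.0170 CPM per kilobase lay below every value of Tcf21 and overlapped among themselves. Neighbours whose ranges overlap over the libraries could still keep their order within each library. Upk3b lay above Msln, Wt1 above Bnc1, Bnc1 above Tcf21 and Shox2 above Tbx15 in 6 of 6 fat libraries. Upk1b lay above Lrrn4 in 4 and below it in 2, and Tbx15 lay above Hoxc10 in 3 and below it in 2. Those last 2 pairs do not differ beyond their spread.

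The tissue comparison asked how far the visceral genes of fat stand above liver, by edgeR's quasi-likelihood test with Benjamini-Hochberg adjusted p under 0.05 over all genes tested. In this comparison 70.9% of all genes passed in WT and 69.4% in KO, so that a call by itself is common, and the size of the difference is what describes these genes. Of the 7 visceral genes tested, 6 were higher in fat in WT and the same 6 in KO, where 37.3% and 36.8% of all genes were called higher and 33.5% and 32.6% lower. Their median difference, Tcf21 included, was 4.20 in WT and 4.83 in KO on the log2 scale, against 0.05 for all genes in both. All 7 also pass the filter on low counts within the liver libraries alone, so none entered through fat only. The 3 subcutaneous genes failed the filter and have no test.

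Lrrn4 had the highest value of the members, with a log2 fold change of 5.89 ± 0.34 (SE, adjusted p = 1.47e-06) in WT and 5.80 ± 0.46 (adjusted p = 1.82e-05) in KO. Upk3b followed at 5.12 ± 0.39 (adjusted p = 3.68e-05) and 4.96 ± 0.48 (adjusted p = 0.000161). For the uroplakin partner Upk1b the values were 4.76 ± 0.22 (adjusted p = 4.18e-07) and 4.81 ± 0.24 (adjusted p = 5.36e-08). Of the 3 genes, all fat libraries lay above all liver libraries, as they did for 63.6% of all genes in WT and 64.6% in KO. Msln differed by 4.20 ± 0.16 in WT and 4.83 ± 0.23 in KO, Bnc1 by 3.92 ± 0.30 and 4.85 ± 0.53, and Wt1 by 3.42 ± 0.28 and 3.84 ± 0.31, with the largest adjusted p of these at 2.71e-05. The values of the 2 genotypes were not tested against each other.

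Tcf21 took the opposite sign, at -0.87 ± 0.40 (adjusted p = 0.0797) in WT and -0.77 ± 0.29 (adjusted p = 0.0342) in KO. The call in KO ended without any 1 of 5 libraries (replicates 1 and 2 of liver and each of fat), with an adjusted p of up to 0.163. Without replicate 1 of fat, the WT value passed, at -1.32 (adjusted p = 0.0100). Both values also depend on the scaling. The trimmed-mean (TMM) factors of the fit lower fat against liver, and with library totals only the median of all genes moved up by 0.83 in both genotypes and Tcf21 stood at -0.03 ± 0.40 in WT and 0.06 ± 0.29 in KO (adjusted p = 0.946 and 0.849). The share of called genes that were higher in fat moved with it, from 52.7% to 78.0% in WT and from 53.0% to 79.2% in KO. The other 6 members were higher in fat under both scalings, with log2 fold changes on library totals of 4.25 to 6.72 in WT and 4.67 to 6.63 in KO.

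**Figure D2:**
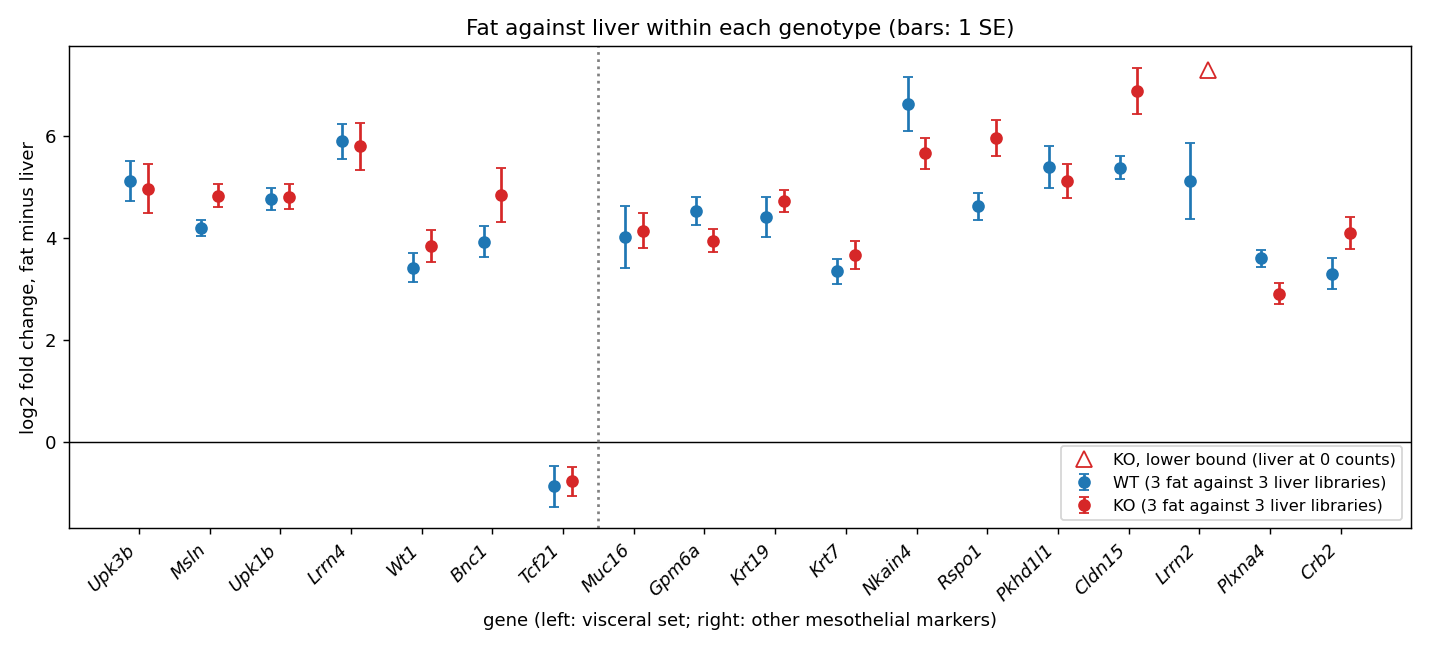
Log2 fold change of fat over liver with its SE for the 7 tested visceral genes (left of the dotted line) and 11 other mesothelial markers (right), in WT (blue) and KO (red), 3 libraries against 3. All but Tcf21 lie above 0 in both genotypes, with the lowest at 2.91 for Plxna4 in KO. Lrrn2 in KO, where liver had 0 counts, is drawn as an open triangle at its lower bound on library totals, at least 158-fold higher, a log2 value of 7.30.

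Traces of liver RNA in fat, and of fat RNA in liver, were read from a marker of each tissue. Albumin (Alb) stood at 76.8 to 1977 CPM in fat, which by its level in liver amounts to at most 2.37% of a library (replicate 1 of KO). Liver RNA would by this measure bring at most 1.17 counts of Upk3b and 1.70 counts of Tcf21, both in replicate 1 of WT, at a share of 2.23%. For the 6 raised members the share of the measured counts was at most 0.101%. In the other direction, Adipoq had 2 counts over the 6 liver libraries, and fat RNA by that measure would bring at most 0.794% of the Lrrn4 counts of a liver library.

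Without the 2 fat libraries highest in Alb, replicate 1 of each genotype, the same 6 members stayed called higher in fat.

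Of the subcutaneous members, Shox2 had 28 counts over WT fat and 1 over WT liver, a ratio of 27.3 on library totals with an exact 95% counting interval of 4.51 to 1115. In KO it had 23 counts in fat and 0 in liver, at least 7.40-fold higher when 3 counts are set for the liver group. Single libraries carried most of these counts, 21 in replicate 1 of WT and 16 in replicate 3 of KO. Without the first the ratio was 10.3 (1.33 to 466), and without the second the bound was 3.43-fold. The intervals cover counting error and not the spread between libraries. Shox2 shares 4.62% of its exonic bases with Rsrc1 on the other strand, and whether reads were counted by strand is not given. Tbx15 had 5 counts in fat and 1 in liver in each genotype, with intervals from 0.545 to 230 in WT and from 0.540 to 228 in KO, which include a ratio of 1.

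The other mesothelial genes followed the visceral members. Of 12 further markers 11 were tested, and all 11 were higher in fat in both genotypes, with a median of 4.53 in WT and 4.73 in KO. Within the liver libraries alone 8 of them passed the filter, so the others passed it through fat, where they are high. The leading ones in fat were Gpm6a, a membrane glycoprotein, at 89.1 ± 24.4 CPM, Pkhd1l1 at 83.8 ± 27.7 CPM and the tight junction gene Cldn15 at 74.6 ± 9.81 CPM (SD, n = 6). Muc16, which encodes the mucin CA125 of mesothelium, stood at 32.1 to 78.7 CPM in fat. Calb2 had 0 counts in all 12 libraries and was the single marker not found. The list was chosen with earlier results of these data known, and in the tissue comparison 37.3% (WT) and 36.8% (KO) of all genes were called higher in fat.

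Genes that regulate the coelomic lining and its derivatives did not move together. Osr1, a zinc finger factor of intermediate and lateral mesoderm, averaged 40.7 ± 9.37 CPM in fat and had 0 counts in liver, at least 510-fold higher in WT and 706-fold in KO on library totals with 3 counts set for the liver group. Nr2f2 averaged 35.8 ± 6.69 CPM and Gata6 27.7 ± 5.86 CPM in fat, and both are also expressed in liver. Of the 8 tested, 3 were called higher and 4 lower in fat in WT, and 4 and 4 in KO. Among all genes 37.3% (WT) and 36.8% (KO) were called higher, and 33.5% and 32.6% lower. Within the liver libraries alone 5 of the 8 passed the filter, so the others passed it through fat. With library totals only, 4 of the 8 were higher and 3 lower in both genotypes. Gata6 then passed in WT as well. Nr2f2, called lower with TMM factors, no longer passed, with a sign that turned in KO from -0.62 to 0.21. Gata4, Hand2 and Foxf1, which liver mesenchyme also uses, were lower in fat under both scalings.

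Further genes linked to visceral fat were present too. Thbd (thrombomodulin) stood at 262 ± 65.9 CPM, Gpc4 (glypican 4) between 88.5 and 127 CPM and Hoxc8 at 96.9 ± 9.17 CPM in fat. Of 6 tested, 5 were called higher in fat in both genotypes, where 37.3% (WT) and 36.8% (KO) of all genes were. Within the liver libraries alone 3 of the 6 passed the filter, so the others passed it through fat, where they are high. Gpc4 was called lower in WT (-0.45 ± 0.12, edgeR adjusted p = 0.00811), but on library totals it was called higher in both genotypes, at 0.38 ± 0.12 in WT. Of 4 further genes linked to subcutaneous fat, Sfrp2, a secreted Wnt modulator, stood at 38.4 ± 8.64 CPM and Hoxc9 at 4.80 ± 1.68 CPM. Both were called higher in fat in both genotypes. Neither passed the filter within the liver libraries alone, so both passed it through fat and had to differ. Against 1 liver count in each genotype, Sfrp2 had ratios of 1473 (264 to 58210) in WT and 1981 (355 to 78280) in KO on library totals. Hoxc9 had 0 counts in liver and was at least 64.0-fold and 80.8-fold higher. En1 averaged 0.504 ± 0.269 CPM and Hoxa10 0.0787 ± 0.163 CPM, both too low to test.

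Hoxc9 and Sfrp2 were detected, so the subcutaneous side was not at 0 in every gene. Of 14 regulators of limb and body wall, Prrx1 stood at 35.8 ± 8.64 CPM, Meox2 at 29.4 ± 4.50 CPM and Twist1 at 17.9 ± 3.40 CPM in fat. These are mesenchymal factors. The hindlimb gene Pitx1 had at most 4 counts in a fat library and the forelimb gene Tbx5 at most 1. The 9 that were tested were all called higher in fat in both genotypes, where 37.3% (WT) and 36.8% (KO) of all genes were. Of these 9, 4 in WT and 3 in KO had 0 counts in liver. They passed the filter through fat and had to differ. Within the liver libraries alone, 3 genes of the list passed the filter, so the others tested passed it through fat.

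Hox genes mark position along the body axis, by paralog group from anterior to posterior, and in fat few reads came from the most posterior groups. Groups 1 to 8 (23 genes) had 26313 counts over the 6 fat libraries, group 9 (4 genes) had 1226, and groups 10 to 13 (12 genes, Hoxc10 among them) had 32, of which 9 genes had 0. In the Hoxc cluster the level fell from 34.2 CPM per kilobase for Hoxc8 to 1.98 for Hoxc9 and 0.0170 for Hoxc10, and Hoxc11 to Hoxc13 had 0 counts. In the Hoxd cluster it fell from 11.3 for Hoxd8 to 2.70 for Hoxd9 and 0.132 for Hoxd10. Levels per kilobase in the Hoxa cluster fell from 7.01 for Hoxa7 to 0.114 for Hoxa9 and 0.0241 for Hoxa10. Of these falls the wider came before group 9 in the Hoxa cluster and after it in the Hoxc and Hoxd clusters. Some anterior genes were as low in fat, with Hoxb1 at 0, Hoxd1 at 0.0646 and Hoxd4 at 0.103 CPM per kilobase.

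After Hoxc8 the next levels were Hoxd8 at 31.1 ± 3.45 CPM, Hoxc6 at 27.4 ± 5.39 CPM and Hoxa7 at 20.2 ± 7.79 CPM (SD, n = 6). Hoxc4 at 17.8, Hoxc5 at 17.2, Hoxa5 at 14.6 and Hoxb4 at 10.1 CPM completed the 8 highest. All were genes of groups 4 to 8. Of 39 Hox genes, 20 were tested in WT and 19 called higher in fat, and 22 of 22 in KO. Among all genes 37.3% (WT) and 36.8% (KO) were called higher in fat. Liver had 460 counts over the genes of groups 1 to 8 and 0 over groups 9 to 13. Within the liver libraries alone 1 of the 39 passed the filter, so the others tested passed it through fat. Hox genes share exonic bases with other annotated genes, 62.8% of them in Hoxd3 and 8.70% in Hoxc10, the latter with Hoxc5 on its own strand, and reads there are uncertain.

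**Figure D3:**
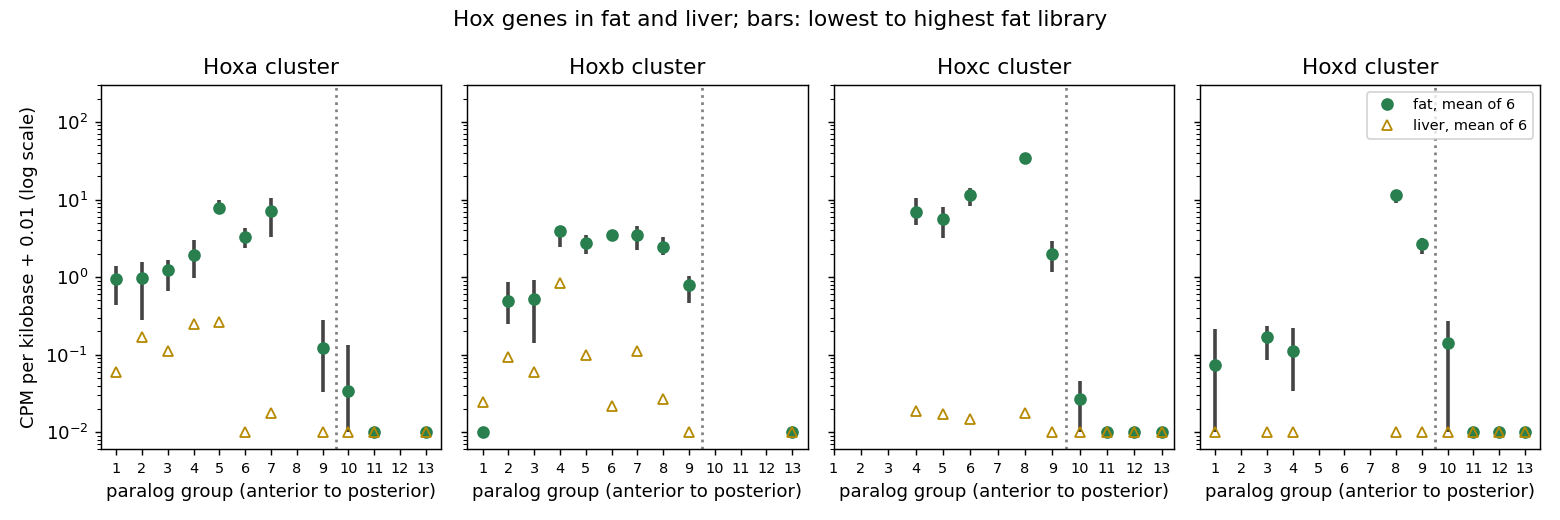
Mean level of the 39 Hox genes by paralog group in each of the 4 clusters, as CPM per kilobase plus 0.01 on a log axis, for 6 fat libraries (circles, with a bar from lowest to highest library) and 6 liver libraries (triangles). The dotted line stands between groups 9 and 10; in fat the genes to its right lie at or below 0.132 CPM per kilobase, where Hoxc8 reaches 34.2.

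Other cell types that a dissected pad could hold were measured beside the depot genes. The 7 keratinocyte markers summed to 4.69 to 19.9 CPM in fat, with Krt5 and Krt15 at 0 in every library, and Krt14 at 29 to 210 counts per library. The 9 epididymis and testis markers summed to at most 0.511 CPM in fat, with 7 of them at 0 in every fat library. The 7 lymph node and B cell markers summed to 266 to 1434 CPM, of which Ighm made up most. Skeletal muscle markers summed to 57.7 to 215 CPM, nearly all of it Acta1, which stood at 120 ± 63.5 CPM. The 9 adipose progenitor and fibroblast markers summed to 2836 to 4163 CPM, led by Col3a1 and Dcn. The 8 glandular epithelium markers summed to 27.9 to 66.5 CPM, most of it from Krt8 (mean 26.6 CPM) and Krt18 (mean 11.8 CPM). Replicate 1 of WT, lowest in the visceral sum, was also lowest in the keratinocyte and lymph node lists and highest in the muscle list. Replicate 2 of KO, highest in the visceral sum, was also highest in the adipocyte and glandular lists. Their part in the depot values was not tested.

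**Figure D4:**
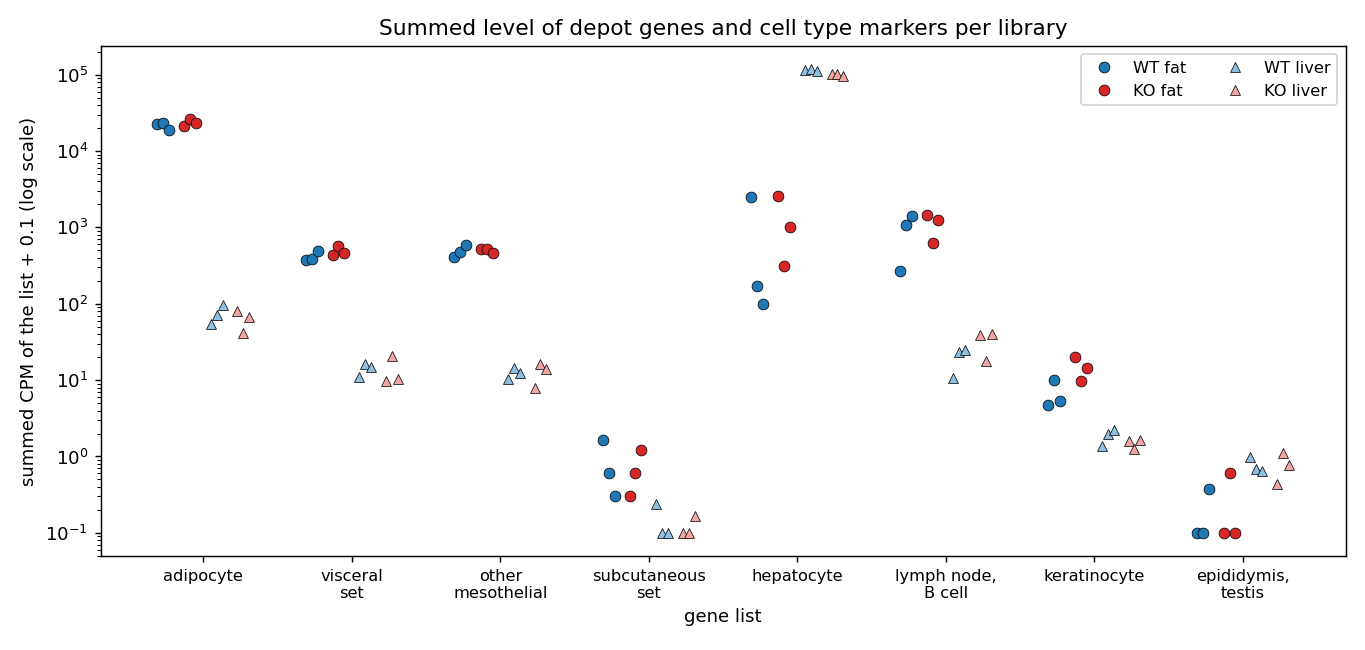
Summed CPM plus 0.1, on a log axis, of the 2 depot sets and 6 marker lists in each library; circles are fat and triangles liver, coloured by genotype. In fat the visceral set (379 to 564) and the other mesothelial markers (411 to 586) lie close together and far above the subcutaneous set (0.204 to 1.52).

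The genotype comparison asked whether depot genes differ in fat between KO and WT. Of the 10 members 7 were tested and 0 passed, as did 0 of the 15919 genes tested in fat (0%) by edgeR. Unadjusted, 1216 genes (7.64%) had a p under 0.05, and 1 of the 7 members did. DESeq2 called 50 genes and limma voom 0, none of them a member. The WT and KO groups of each of the 7 members overlapped, where 7.05% of all genes had every KO library above and 7.8% every KO library below WT.

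In 2 of the 3 KO fat libraries Wt1 lay above every WT library. Its log2 fold change was the largest of the 7, at 0.41 ± 0.18 (edgeR adjusted p = 0.649). Lrrn4 stood at 0.35 ± 0.17 (adjusted p = 0.659), Upk3b at 0.26 ± 0.20 (adjusted p = 0.747) and Msln at 0.25 ± 0.16 (adjusted p = 0.714). Bnc1 stood at 0.17 ± 0.17, Upk1b at -0.01 ± 0.18 and Tcf21 at -0.04 ± 0.34. An interval of 2 SE runs from 0.05 to 0.78 for Wt1 and from -0.37 to 0.35 for Upk1b. The median of the 7 was 0.25, where that of all genes was -0.00269.

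Of the 11 other mesothelial markers tested in fat 0 passed by edgeR, 7 had a positive and 4 a negative value, and the median was 0.24. Unlike the 7 members, 5 of them had groups that did not overlap, a count to be read against the 7.05% and 7.8% of all genes above. Lrrn2, Krt19, Nkain4 and Cldn15 were higher in every KO library than in every WT library, and Plxna4 was lower. Unadjusted, 3 of the 11 had a p under 0.05, where 7.64% of all genes did. Lrrn2 stood at 0.88 ± 0.20 (adjusted p = 0.601) and Krt19 at 0.53 ± 0.14 (adjusted p = 0.649). Among 23 Hox genes 0 passed, with 18 positive and 5 negative values, where 49.6% of all genes tested in fat were positive. For the subcutaneous members the counts were 28 in WT and 23 in KO for Shox2, 5 and 5 for Tbx15, and 2 and 1 for Hoxc10.

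**Figure D5:**
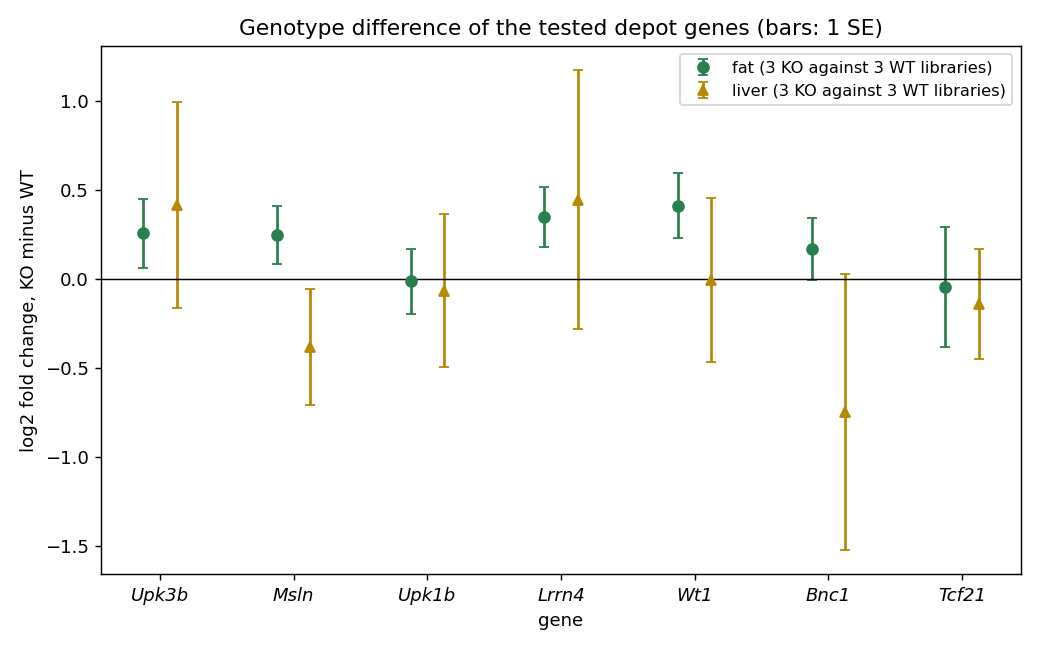
Log2 fold change of KO over WT with its SE for the 7 tested visceral genes, in fat (circles) and liver (triangles), 3 libraries against 3. The values in fat run from -0.04 for Tcf21 to 0.41 for Wt1 with none past the test, and the values in liver from -0.75 for Bnc1 to 0.45 for Lrrn4.

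In liver, where these genes are low, 7 members were tested and 0 passed, beside 21 of 13529 genes (0.155%). Unadjusted, 12.2% of all genes and 0 of the 7 had a p under 0.05. The log2 fold changes ran from -0.75 ± 0.78 for Bnc1 to 0.45 ± 0.73 for Lrrn4, with Upk3b at 0.42 ± 0.58 and Msln at -0.38 ± 0.32. Replicate 2 of KO liver had the highest Upk3b and Lrrn4 of the 6 liver libraries, and without it both take a negative sign, at -0.27 and -0.59. The groups of all 7 overlapped, where 7.71% of all genes had every KO library above and 11.1% every KO library below WT. Intervals of 2 SE run from -1.01 to 1.91 for Lrrn4 and from -2.30 to 0.80 for Bnc1, and both include 0.

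Within the 6 fat libraries, Lrrn4 varied most like Upk3b of the members. Likeness was measured as the root mean square difference of log2 CPM (prior count 2), each gene centred on its own mean, over 6 libraries that share their depth and tissue, and 15918 genes were ranked. Lrrn4 had rank 8 at 0.100, where the median gene stood at 0.369. The 5 closest were Ugt1a7c at 0.0817, 2310033P09Rik at 0.0850, Mirt1 at 0.0856, Bloc1s3 at 0.0874 and March3 at 0.0907. Msln had rank 227, Upk1b 287, Bnc1 1558, Wt1 6458 and Tcf21 12022. The visceral set thus did not rise and fall as 1 block: replicate 2 of KO was highest in Upk3b, Msln, Lrrn4 and Bnc1, replicate 1 of KO in Wt1, replicate 3 of WT in Upk1b and replicate 1 of WT in Tcf21.

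Against Shox2, with 2 to 21 counts per library, the closest genes were Shank1 at 0.280, mt-Co3 at 0.336, Lin7a at 0.373, Gm16031 at 0.377 and Pde4c at 0.385, with a median of 0.948 over 15919 genes. Tcf21, highest like Shox2 in replicate 1 of WT, had rank 366. With so few counts of Shox2 these values describe its counting error as much as its pattern.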

How the data were processed

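RNA was extracted with TRIZOL and made into libraries with a directional NEBNext kit, per the labels' protocols. The deposited table holds whole-number read counts per gene with 1 column per sample and, from its values, no normalisation by the authors. The submitters' processing notes name CASAVA 1.8, HISAT2 and the builds GRCm38 and mm10. The counting program is not given in the sources used here, nor are its strand setting and annotation. All 10 members were found in GENCODE M21, 9 with the same start and end (not Msln). Where 2 rows share a symbol (Hoxd4, Ccl21a), the row with more counts was used.

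The 12 libraries form 4 groups of 3 by their titles. The quasi-likelihood F test of edgeR 4.0.16 (R 4.3.3) was run with its robust option after filterByExpr and TMM scaling, each comparison on its own 2 groups, with adjusted p under 0.05 over all genes tested. SE is the log2 fold change over the square root of F. Any p-value with no tool beside it comes from this test. CPM is counts over library totals, and per kilobase uses the deposited gene length, whose annotation is not stated. Alternatives used DESeq2 1.42.0 and limma 3.58.1. The fit was tested on simulated counts with planted changes. No 2 replicates agreed within sampling noise: their chi-square was 9.01 to 69.7 times its degrees of freedom.

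The members and lists were chosen with earlier results of these data known. Named were all members, the microRNA rows, and the 3 genes (8 for Hox) of each list with the highest mean CPM in fat, plus genes singled out after their values were seen (Muc16, Calb2, Lrrn2, Krt19, Nkain4, Upk2, Upk3a, Plxna4, Gata4, Hand2, Foxf1, Pitx1, Tbx5, Krt5, Krt15, Lrat, Ngfr, Colec11, and the Hox genes beside the step).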

Additional observations from a re-analysis of the deposited data

How the results depend on the processing

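Each comparison was refitted under other scalings, filters, tests and samples, and 3 alternatives were chosen after seeing the data (library totals only, without the 2 fat libraries highest in Alb, and GENCODE lengths). Wt1, Msln, Upk3b, Lrrn4, Upk1b and Bnc1 were called higher in fat in both genotypes under every alternative run. In the genotype comparisons no member was called under any. The count of genes called in fat was 0 as reported, 29 with no filter, 50 with DESeq2 and 3 in the fit of all 4 groups, and 0 to 1 with a library left out (1 without replicate 2 of WT fat). In liver it was 21, against 378 with no filter, 138 with DESeq2, 3 with limma voom, 3 with no robust step, 1 in the fit of all 4 groups and 5 to 34 with a library left out. With library totals only, 52% of the genes called in liver were higher in KO, against 66.7% as reported. Same-numbered libraries did not pair (correlations -0.067 to 0.169 over 12 pairs); with the replicate block, 0 genes were called in fat and 28 in liver, 10769 fat against liver in WT and 10333 in KO, with 0, 0, 6 and 6 members. Upper quartile factors moved the median of all genes in the tissue comparisons by 0.17 and 0.18.

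Signs of members that turned were all of values that did not pass, besides Tcf21 in KO with library totals only (0.064). In fat, Tcf21 turned with limma voom (0.041), the replicate block (0.045), without replicate 1 of WT (0.39) and without the libraries highest in Alb (0.44), and Upk1b without replicate 3 of WT (0.13) or KO (0.12); with a library left out Tcf21 ran from -0.26 to 0.39 and Upk1b from -0.16 to 0.13. In liver, Wt1 turned in the fit of all 4 groups (0.0044) and without replicate 1 of WT (0.30), replicate 1 of KO (0.13) or replicate 3 of KO (0.26). Tcf21 turned without replicate 2 of WT (0.18) or 3 of KO (0.06), Upk1b without replicate 1 of KO (0.047), and Upk3b (-0.27) and Lrrn4 (-0.59) without replicate 2 of KO. With a library left out, Wt1 in liver ran from -0.51 to 0.30, Upk3b from -0.27 to 0.81, Lrrn4 from -0.59 to 0.92, Upk1b from -0.22 to 0.047 and Tcf21 from -0.41 to 0.18. Tcf21, fat against liver, passed in WT in 4 of 17 alternatives. Among them were the fit of all 4 groups (adjusted p = 0.0461) and those without replicate 1 of WT liver (0.0443) and of WT fat (0.0100). In KO it passed in 6 of 17. Besides library totals, it failed among others with upper quartile factors (0.0898), no filter (0.0567), all 4 groups (0.0719), the block (0.0618) and with 5 of 6 libraries left out, up to 0.163. The cause was not tested. Depth limits the 3 subcutaneous genes. Without dividing by length, Lrrn4 ranks 3 and Upk1b 4, and with GENCODE M21 lengths all 10 ranks are as reported.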
